A study of Mus musculus with 4 samples.

Results

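The serpins (serine protease inhibitors) were examined in 4 spatial transcriptome sections of mouse facial skin and oral mucosa. Members were all genes of the deposited gene list whose symbol begins with Serpin, which gave 62 of 32285 genes. They fell into clade b with 27 genes, clade a with 24, clade e with 3, clades f and i with 2 each, and clades c, d, g and h with 1 each, so that 35 members lay outside clade b. The study compared wounds of oral mucosa with wounds of facial skin in wildtype mice, on flash-frozen tissue, with the 10x Visium assay. There each tissue section is placed on a grid of barcoded spots, each covering several cells, and every captured transcript is counted by its unique molecular identifier (UMI). The groups were oral mucosa at postoperative day 4, unwounded oral mucosa, facial skin at postoperative day 4 and unwounded facial skin, with 1 section each. With 1 section a group no test was possible and no replicate check exists. Every difference below is one between sections, given with an exact 95% Poisson interval that covers counting error only.

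Most serpins trap a protease by offering a reactive loop as a bait: the protease cuts the loop and is locked, with the serpin, in a dead complex. Clade b serpins lack a classical secretion signal, act mainly inside cells, and many are made by stratified epithelia and leukocytes. Most members of the other clades are secreted. They restrain clotting, plasmin formation and complement, while some, such as the collagen chaperone Serpinh1, inhibit no protease at all.

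Of the 62 members, 53 had at least 1 entry in the RefSeq promoter table (GRCm38.p6), and 22 of these were among the 27 members with at least 100 UMIs over the 4 sections. The 250 bases before the first start listed in that table are shown for 9 clade b genes that lie in 1 cluster on chromosome 1. Serpinb2 and Serpinb12 each have 2 starts there, and the Serpinb2 stretch lies inside the gene's span in the gene table (chr1:107500892-107525600). The Serpinb8 stretch runs into its gene's span (chr1:107589926-107608978), and its TGAGTCA letters lie inside that span. All stretches are written 5′ to 3′ on the gene's own strand, with both strands searched. Capitals mark the letters TGANTCA, an AP-1 type motif. Capitals also mark the letters TATAAA of a core promoter motif, which stand in reverse complement where they lie on the other strand, and no 2 matches overlap. Serpinb3a, Serpinb3b and Serpinb3c are shown because these near neighbours had unlike tissue patterns, and the other 6 because all have the AP-1 letters.
Serpinb3a, chr1:107052304-107052553, minus strand: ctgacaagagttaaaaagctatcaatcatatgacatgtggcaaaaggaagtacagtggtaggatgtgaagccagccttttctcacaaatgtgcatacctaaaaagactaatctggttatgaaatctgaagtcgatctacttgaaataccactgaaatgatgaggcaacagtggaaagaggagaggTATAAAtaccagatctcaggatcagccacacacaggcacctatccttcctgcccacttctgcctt
Serpinb3b, chr1:107161115-107161364, minus strand: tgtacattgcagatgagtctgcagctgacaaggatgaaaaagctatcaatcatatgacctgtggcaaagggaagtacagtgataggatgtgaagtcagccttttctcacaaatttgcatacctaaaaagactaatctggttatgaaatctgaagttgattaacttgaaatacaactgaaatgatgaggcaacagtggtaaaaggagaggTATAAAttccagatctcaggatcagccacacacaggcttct
Serpinb3c, chr1:107278372-107278621, minus strand: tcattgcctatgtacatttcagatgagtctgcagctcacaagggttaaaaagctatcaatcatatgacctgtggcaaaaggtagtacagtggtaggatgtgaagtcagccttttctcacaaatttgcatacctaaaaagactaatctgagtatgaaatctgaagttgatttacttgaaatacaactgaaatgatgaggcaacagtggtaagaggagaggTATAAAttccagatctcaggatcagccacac
Serpinb5, chr1:106860925-106861174, plus strand: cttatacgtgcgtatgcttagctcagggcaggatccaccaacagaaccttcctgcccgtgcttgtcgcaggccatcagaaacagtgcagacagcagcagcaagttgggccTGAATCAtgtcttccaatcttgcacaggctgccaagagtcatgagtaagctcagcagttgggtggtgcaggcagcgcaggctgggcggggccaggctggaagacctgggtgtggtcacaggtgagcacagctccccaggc
Serpinb12, chr1:106934199-106934448, plus strand: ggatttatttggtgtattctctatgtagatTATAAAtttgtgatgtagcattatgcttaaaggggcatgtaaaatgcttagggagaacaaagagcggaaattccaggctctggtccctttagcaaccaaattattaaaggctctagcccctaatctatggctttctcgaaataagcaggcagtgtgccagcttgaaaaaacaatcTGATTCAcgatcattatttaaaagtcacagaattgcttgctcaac
Serpinb11, chr1:107362064-107362313, plus strand: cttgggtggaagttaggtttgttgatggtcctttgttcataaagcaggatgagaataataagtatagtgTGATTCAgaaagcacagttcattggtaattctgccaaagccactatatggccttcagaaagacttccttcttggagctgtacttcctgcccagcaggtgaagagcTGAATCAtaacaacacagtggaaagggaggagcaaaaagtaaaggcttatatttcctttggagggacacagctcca
Serpinb7, chr1:107422439-107422688, plus strand: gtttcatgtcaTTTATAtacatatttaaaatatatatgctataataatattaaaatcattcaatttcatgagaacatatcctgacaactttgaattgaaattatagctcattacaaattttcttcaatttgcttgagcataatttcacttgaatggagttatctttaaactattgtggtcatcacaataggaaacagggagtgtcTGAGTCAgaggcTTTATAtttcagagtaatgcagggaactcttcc
Serpinb2, chr1:107511173-107511422, plus strand: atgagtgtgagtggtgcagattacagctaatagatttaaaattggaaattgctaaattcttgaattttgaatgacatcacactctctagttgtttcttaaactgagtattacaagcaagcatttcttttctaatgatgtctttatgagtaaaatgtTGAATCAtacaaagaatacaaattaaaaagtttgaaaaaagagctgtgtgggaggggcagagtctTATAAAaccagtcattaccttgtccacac
Serpinb8, chr1:107589756-107590005, plus strand: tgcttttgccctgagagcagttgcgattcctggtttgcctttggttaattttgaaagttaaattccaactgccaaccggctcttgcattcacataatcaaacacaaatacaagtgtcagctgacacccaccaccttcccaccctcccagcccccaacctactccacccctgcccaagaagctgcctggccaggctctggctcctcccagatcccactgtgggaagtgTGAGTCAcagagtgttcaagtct

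In a global alignment, Serpinb3b and Serpinb3c matched at 229 of 260 alignment columns (88.1%), Serpinb3a and Serpinb3b at 211 of 274 (77.0%), and Serpinb3a and Serpinb3c at 204 of 284 (71.8%). Gaps count as unmatched: in the same order 20, 48 and 68 columns were gapped, and 11, 15 and 12 were mismatched. Most unmatched columns were thus gaps, and the shares do not rank the pairs by base changes. The TATAAA letters began 65 bases before the start in Serpinb3a, 41 in Serpinb3b and 31 in Serpinb3c. The AP-1 letters occurred in 6.75% of all 32851 promoters of this length. They occurred in 6 of the 13 clade b genes that had at least 100 UMIs and a promoter entry, and in 0 of the 9 such genes of the other clades. The TATAAA letters occurred in 12.4% of all promoters, in 6 of those 13 clade b genes and in 1 of the 9 others, Serpina3b. Those genes are a subset chosen by their UMIs. Over all members with a promoter entry, the AP-1 letters occurred in 6 of 25 clade b genes and 4 of 28 others, and the TATAAA letters in 8 of 25 and 6 of 28. The shares of all promoters are per promoter entry, while a member gene counted if any of its listed starts matched. None of these matches shows binding.

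The day 4 oral section held 430 spots and 3004174 UMIs, the unwounded oral section 1288 spots and 7285023 UMIs, the day 4 facial section 1141 spots and 9934290 UMIs, and the section labelled unwounded facial skin 671 spots and 11939479 UMIs. In the unwounded oral section 652 spots held under 100 UMIs. Levels are UMIs scaled to 1000000 UMIs a section (CPM). For a member at 0 a floor of 3 UMIs is used, which is 0.999 CPM in day 4 and 0.412 CPM in unwounded oral mucosa, and 0.302 CPM in day 4 facial skin and 0.251 CPM in the section labelled unwounded. Mitochondrial genes took 11.9% and 20.8% of UMIs in day 4 and unwounded oral mucosa, against 2.75% and 2.71% in day 4 facial skin and the section labelled unwounded. Any 2 sections shared 46 to 347 spot barcodes and none was in all 4, where a Visium barcode marks an array position. The skeletal muscle list took 4.59% and 5.396% of UMIs in day 4 and unwounded oral mucosa, against 0.101% and 0.125% in day 4 facial skin and the section labelled unwounded, and the salivary gland list took 0.425% in day 4 oral mucosa and at most 0.00345% elsewhere. Fewer cells of a type and less RNA per cell cannot be told apart in such sums.

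In facial skin the neutrophil and wound keratinocyte markers went against the labels, while some other lists did not. The 10 neutrophil markers took 0.379% of UMIs in day 4 oral mucosa against 0.00438% in unwounded oral mucosa, but 0.0288% in day 4 facial skin against 0.618% in the section labelled unwounded facial skin. In that section 177 of 671 spots had at least 0.5% neutrophil markers, against 3 of 1141 in day 4 facial skin, and the 9 wound keratinocyte markers took 1.5004% of UMIs, against 0.621% in day 4 facial skin. S100a8 is in both lists and had 36155 UMIs in that section, of 73797 neutrophil and 179143 wound keratinocyte UMIs. In day 4 facial skin 5 of 5 erythrocyte, 3 of 5 mast cell and 3 of 9 fibroblast genes were higher and 0 lower. At day 4 in oral mucosa these lists also had higher genes and 0 lower. Of 10 macrophage genes 0 were higher and 6 lower in facial skin, beside 6.09% and 8.59% of all genes, by the call rule given below. The labels were kept as given. With the 2 facial labels exchanged, every facial ratio of day 4 over unwounded would take the opposite sign, and each comparison of oral with facial tissue would use the other facial section. The main counts that use this section are also given without those 177 spots. Both day 4 sections held Xist UMIs (84 oral, 909 facial) and no Ddx3y UMI. The unwounded sections held Ddx3y UMIs (280 oral, 587 facial) and at most 1 Xist UMI. Each comparison of day 4 with unwounded tissue is thus also one between sections that differ in sex-linked transcripts, and these cannot be told apart.

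Clade b supplied most serpin UMIs in every section, and its share was larger in oral mucosa. It made up 76.0% and 84.1% of serpin UMIs in day 4 and unwounded oral mucosa, against 61.0% and 67.4% in day 4 facial skin and the section labelled unwounded. Its summed level was 2117 CPM (2066 to 2170.1) in day 4 oral mucosa and 2721 (2683 to 2759) in unwounded oral mucosa. In facial skin it was 1575 CPM (1551 to 1600.3) at day 4 and 1725 (1702 to 1749) in the section labelled unwounded facial skin. The other clades together had 668 CPM (639 to 698), 516 (499 to 532), 1005 (986 to 1025) and 834 (818 to 851) in the same order. In CPM, the oral sections thus had higher levels of clade b and lower levels of the other clades than the facial sections, at both states. The difference in the other clades ended in unwounded tissue with TMM scaling, where its log2 ratio was 0.07 in place of -0.69. The clades were carried by few genes: 3 genes held 70.6% and 76.6% of clade b UMIs in day 4 and unwounded oral mucosa (Serpinb3a, Serpinb12 and Serpinb6a in both), against 65.3% and 61.3% in day 4 facial skin and the section labelled unwounded, where Serpinb5 and Serpinb6a led. Serpinh1 led the other clades in all 4 sections.

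**Figure D1:**
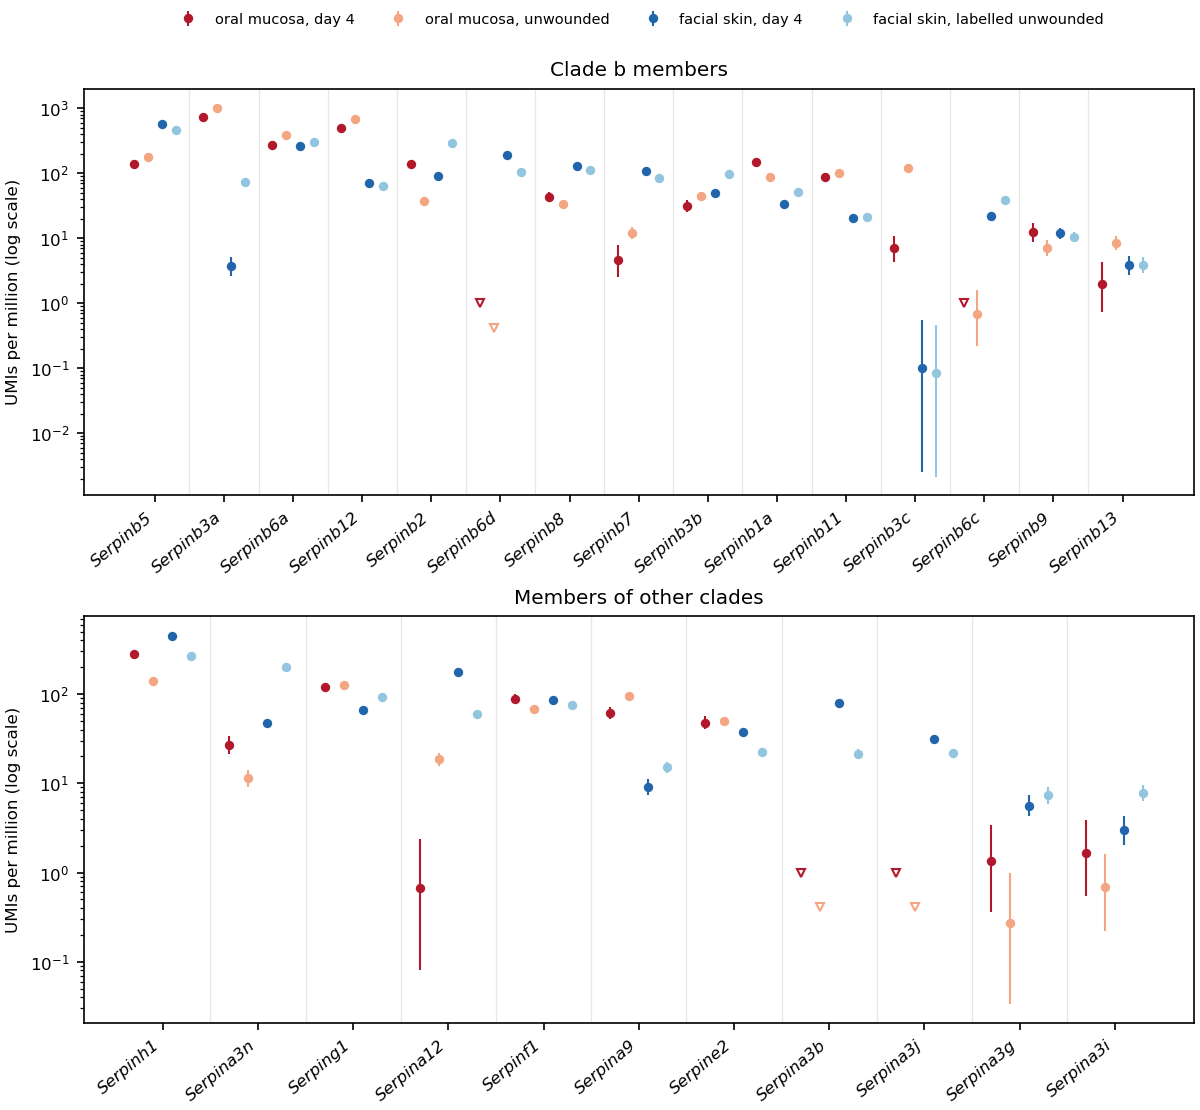
Level of 26 serpin genes with at least 100 UMIs over the 4 sections, in CPM on a log scale, clade b above and other clades below, with exact 95% Poisson intervals. Sections run from left to right within each gene as in the legend; open triangles mark 0 UMIs, drawn at the floor of 3 UMIs. Serpinb6d, Serpina3b and Serpina3j were at 0 in both oral sections, and Serpinb3c had 1 UMI in each facial section.

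Among the clade b genes, 4 that were higher in oral mucosa in both tissue comparisons are given first. Serpinb1a, given below, was also higher in both, 1.66-fold in unwounded tissue and 4.47-fold at day 4. Serpinb3a, a mouse counterpart of the human squamous cell carcinoma antigens, which inhibit serine and cysteine proteases, had 733 CPM (703 to 765) in day 4 oral mucosa and 1012 (989.5 to 1036) in unwounded oral mucosa. In facial skin it had 3.72 CPM (2.62 to 5.13) at day 4 and 73.7 (68.9 to 78.7) in the section labelled unwounded. The facial levels did not overlap the oral ones, and Serpinb3a was 13.7-fold higher in unwounded oral mucosa and 197-fold higher in day 4 oral mucosa than in the matching facial section. Serpinb12, an inhibitor of trypsin-like proteases in human, had 491 CPM and 679 CPM in day 4 and unwounded oral mucosa, against 70.1 CPM and 63.7 CPM in day 4 facial skin and the section labelled unwounded. Serpinb11 had 88.2 and 102 CPM in day 4 and unwounded oral mucosa, against 20.4 and 21.4 CPM in day 4 facial skin and the section labelled unwounded. Serpinb3c was the most restricted of the 4: it had 21 UMIs in day 4 oral mucosa and 871 in unwounded oral mucosa, against 1 UMI in each facial section. Its unwounded ratio was 1427-fold with a log2 interval of 7.997 to 15.8, since it rests on 1 facial UMI.

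The neighbour Serpinb3b did not share that pattern. It had 31.6 CPM (25.6 to 38.7) in day 4 oral mucosa and 44.7 (40.02 to 49.9) in unwounded oral mucosa, against 50.3 (46.0 to 54.9) in day 4 facial skin and 96.6 (91.1 to 102) in the section labelled unwounded, and was 2.16-fold lower in unwounded oral mucosa. Its call was lost without the spots rich in muscle markers, where its log2 ratio of oral over facial was 0.12 unwounded and 0.21 at day 4. How reads shared between near-identical paralogs were counted is not given in the sources used here, so the split among Serpinb3a, Serpinb3b and Serpinb3c, and among Serpinb6a, Serpinb6c and Serpinb6d, is uncertain.

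Another group of clade b genes was higher in facial skin. Serpinb5 (maspin, a serpin that inhibits no protease and is known from human breast and skin epithelium) had 139 and 179.96 CPM in day 4 and unwounded oral mucosa, against 575 and 461 CPM in day 4 facial skin and the section labelled unwounded. Serpinb7, whose loss causes a palmoplantar keratosis in human, had 4.66 and 12.2 CPM in day 4 and unwounded oral mucosa, against 109.6 and 84.4 CPM in day 4 facial skin and the section labelled unwounded. Serpinb8, a furin inhibitor in human, had 43.3 and 34.0 CPM in day 4 and unwounded oral mucosa, against 129 and 112 CPM in day 4 facial skin and the section labelled unwounded. All 3 were lower in oral mucosa in both tissue comparisons, with log2 ratios from -4.56 to -1.36. In spots under 1% muscle markers the unwounded calls of Serpinb5 and Serpinb8 were lost, with log2 ratios of -0.28 and -0.32, and their day 4 calls held. Serpinb6d and Serpinb6c, mouse relatives of human SERPINB6, had nearly all their UMIs in the facial sections: Serpinb6d had 0 UMIs in both oral sections, against 1903 in day 4 facial skin and 1264 in the section labelled unwounded. That is at least 192-fold lower in day 4 oral mucosa and at least 257-fold lower in unwounded oral mucosa, with the oral section at 3 UMIs. Serpinb6c had 0 and 5 UMIs in day 4 and unwounded oral mucosa, against 216 and 462 UMIs in day 4 facial skin and the section labelled unwounded.

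Serpinb6a, an intracellular inhibitor of cathepsin G and trypsin-like proteases, was measured in every section. It had 271 and 393 CPM in day 4 and unwounded oral mucosa, and 262 and 300.3 CPM in day 4 facial skin and the section labelled unwounded. It passed the fold limit in none of the 4 comparisons over whole sections, but did under other settings. In oral mucosa Serpinb6a was called lower at day 4 with TMM scaling (log2 ratio -0.87). Its log2 ratio of unwounded oral over facial tissue was 1.15 with TMM scaling and -0.86 in spots under 1% muscle markers, which are opposite directions. Its annotated span overlaps Nqo2 and Ripk1, and reads of such overlaps cannot be assigned from these tables. Serpinb1a, an inhibitor of neutrophil elastase and cathepsin G, had 148 and 87.0 CPM in day 4 and unwounded oral mucosa, and 33.1 and 52.4 CPM in day 4 facial skin and the section labelled unwounded. Serpinb9, the granzyme B inhibitor, had 12.3 and 7.14 CPM in day 4 and unwounded oral mucosa, and 11.9 and 10.6 CPM in day 4 facial skin and the section labelled unwounded, with no call. Serpinb13, which inhibits cathepsins in human, had 2.00 and 8.51 CPM in day 4 and unwounded oral mucosa, and 3.83 and 3.94 CPM in day 4 facial skin and the section labelled unwounded. Serpinb2 (PAI-2), an inhibitor of urokinase, is known to be induced in stressed epithelium and macrophages. It had 139 CPM (126 to 153) in day 4 oral mucosa and 36.9 (32.6 to 41.6) in unwounded oral mucosa, against 90.9 (85.1 to 97.0) in day 4 facial skin and 297 (287 to 307) in the section labelled unwounded.

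Outside clade b, Serpinh1 (Hsp47, which binds procollagen in the endoplasmic reticulum) held the most UMIs in every section. It had 284 CPM (265 to 303) in day 4 oral mucosa and 138 (130.0 to 147) in unwounded oral mucosa, against 447 (434 to 460.2) in day 4 facial skin and 267 (258 to 276) in the section labelled unwounded. Both day 4 sections were thus above the unwounded section of their tissue. Serpinf1 (PEDF, a secreted serpin that inhibits no protease and restrains vessel growth) had 89.2 and 68.2 CPM in day 4 and unwounded oral mucosa, and 85.4 and 74.5 CPM in day 4 facial skin and the section labelled unwounded, with no call. Serping1 (the C1 inhibitor of complement and contact activation) had 120.5 and 125 CPM in day 4 and unwounded oral mucosa, against 66.2 and 92.9 CPM in day 4 facial skin and the section labelled unwounded. It was 1.82-fold higher in oral mucosa at day 4.

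Serpine2 (protease nexin-1, an inhibitor of thrombin) had 47.6 and 49.4 CPM in day 4 and unwounded oral mucosa, and 37.7 and 22.2 CPM in day 4 facial skin and the section labelled unwounded. Serpine3 had no UMI.

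Most clade a members with at least 100 UMIs had higher levels in facial skin. Serpina12 (vaspin, an inhibitor of the epidermal kallikrein Klk7) had 0.666 and 18.7 CPM in day 4 and unwounded oral mucosa, against 176 and 59.7 CPM in day 4 facial skin and the section labelled unwounded. In spots under 1% muscle markers its unwounded call of oral against facial tissue was lost, and its day 4 call held. Serpina3n, a secreted acute-phase inhibitor of granzyme B and cathepsin G, had 27.0 and 11.4 CPM in day 4 and unwounded oral mucosa, against 47.5 and 203 CPM in day 4 facial skin and the section labelled unwounded. Serpina3b and Serpina3j, of the expanded mouse Serpina3 cluster, had 0 UMIs in both oral sections, against 786 and 311 UMIs in day 4 facial skin and 254 and 258 in the section labelled unwounded. For Serpina3b that is at least 79.2-fold lower in day 4 oral mucosa and at least 51.7-fold lower in unwounded oral mucosa. Serpina9, known from germinal centre B cells in human, was the exception. It had 61.6 and 96.2 CPM in day 4 and unwounded oral mucosa, against 9.16 and 15.1 CPM in day 4 facial skin and the section labelled unwounded. Serpina3g had 1.33 and 0.275 CPM in day 4 and unwounded oral mucosa, against 5.64 and 7.37 CPM in day 4 facial skin and the section labelled unwounded. Serpina3i had 1.66 and 0.686 CPM in day 4 and unwounded oral mucosa, against 3.02 and 7.87 CPM in day 4 facial skin and the section labelled unwounded.

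A member was called higher or lower on 3 conditions: the 2 sections together held at least 20 of its UMIs, the levels differed at least 1.5-fold and the intervals did not overlap. Members that pass this minimum in a tissue comparison can do so through the section where they are high, so the counts describe those members alone. The 4 comparisons share sections and are not independent. In unwounded tissue, 6 of 17 clade b members that passed the minimum were higher in oral mucosa (Serpinb3a, Serpinb3c, Serpinb12, Serpinb11, Serpinb13 and Serpinb1a) and 7 were lower (Serpinb5, Serpinb7, Serpinb8, Serpinb2, Serpinb3b, Serpinb6c and Serpinb6d). Over all 14026 genes that passed, 10.1% were higher and 59.7% lower in oral mucosa. Of 15 members of the other clades, 2 were higher (Serpina9 and Serpine2) and 11 lower, 9 of these in clade a. Without the 177 neutrophil-rich spots 25 of these 26 calls held, with that of Serpina10 lost and Serpinb9 added. In spots under 1% muscle markers 18 of the 26 held, and 18 of the 26 in the 25% of spots richest in epithelial markers. The median log2 ratio, with 10 CPM added, was 0.05 over the clade b members, -0.74 over the others and -0.47 over all genes. With TMM scaling the all-gene median was -0.08, a shift of more than 0.1, and the medians were 0.15 for clade b and -0.22 for the others.

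At day 4, 6 of 15 clade b members were higher in the oral than in the facial day 4 section and 6 lower. Over all 13633 genes that passed, 11.5% were higher and 35.5% lower. Higher in both tissue comparisons were Serpinb3a, Serpinb3c, Serpinb12, Serpinb11 and Serpinb1a. Serpinb2 was 1.53-fold higher in oral mucosa at day 4 and 8.04-fold lower in unwounded oral mucosa. Of 14 members of the other clades, 3 were higher, among them Serpina9 and Serping1, and 7 lower. Serpinh1, 1.58-fold lower in day 4 oral mucosa, turned direction in the 25% of spots richest in epithelial markers, where its log2 ratio was 0.91, and lost its call with TMM scaling.

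In oral mucosa 5 of the 22 serpins that passed the minimum were higher at day 4 and 5 lower, beside 20.6% and 3.56% of all genes. Among the higher ones were the urokinase inhibitor Serpinb2 and the collagen chaperone Serpinh1. Of 14 clade b members that passed, 2 were higher at day 4, Serpinb2 (3.76-fold) and Serpinb1a (1.70-fold), and 3 lower, Serpinb3c (17.1-fold), Serpinb13 (4.26-fold) and Serpinb7 (2.62-fold). Of 8 members of the other clades, 3 were higher, among them Serpina3n (2.37-fold) and Serpinh1 (2.05-fold), and 2 lower, Serpina9 (1.56-fold) and Serpina12, which had 2 UMIs at day 4 (log2 ratio -4.81, -7.87 to -2.93). The call of Serpina9 was lost in spots under 1% salivary gland markers, with a log2 ratio of -0.58. Over all 12544 genes that passed, 20.6% were higher and 3.56% lower. The median log2 ratio was -0.37 over clade b, 0.15 over the others and 0.17 over all genes. Serpinb3a, Serpinb12 and Serpinb3b were 1.38-fold, 1.38-fold and 1.42-fold lower at day 4, short of the limit, and became lower calls with TMM scaling. Under TMM scaling 8 clade b members were lower. In spots under 1% muscle markers 8 were also lower, but not the same 8, since Serpinb6a was called with TMM scaling and not there. Serpinb1a lost its call with TMM scaling, with a log2 ratio of 0.43.

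**Figure D2:**
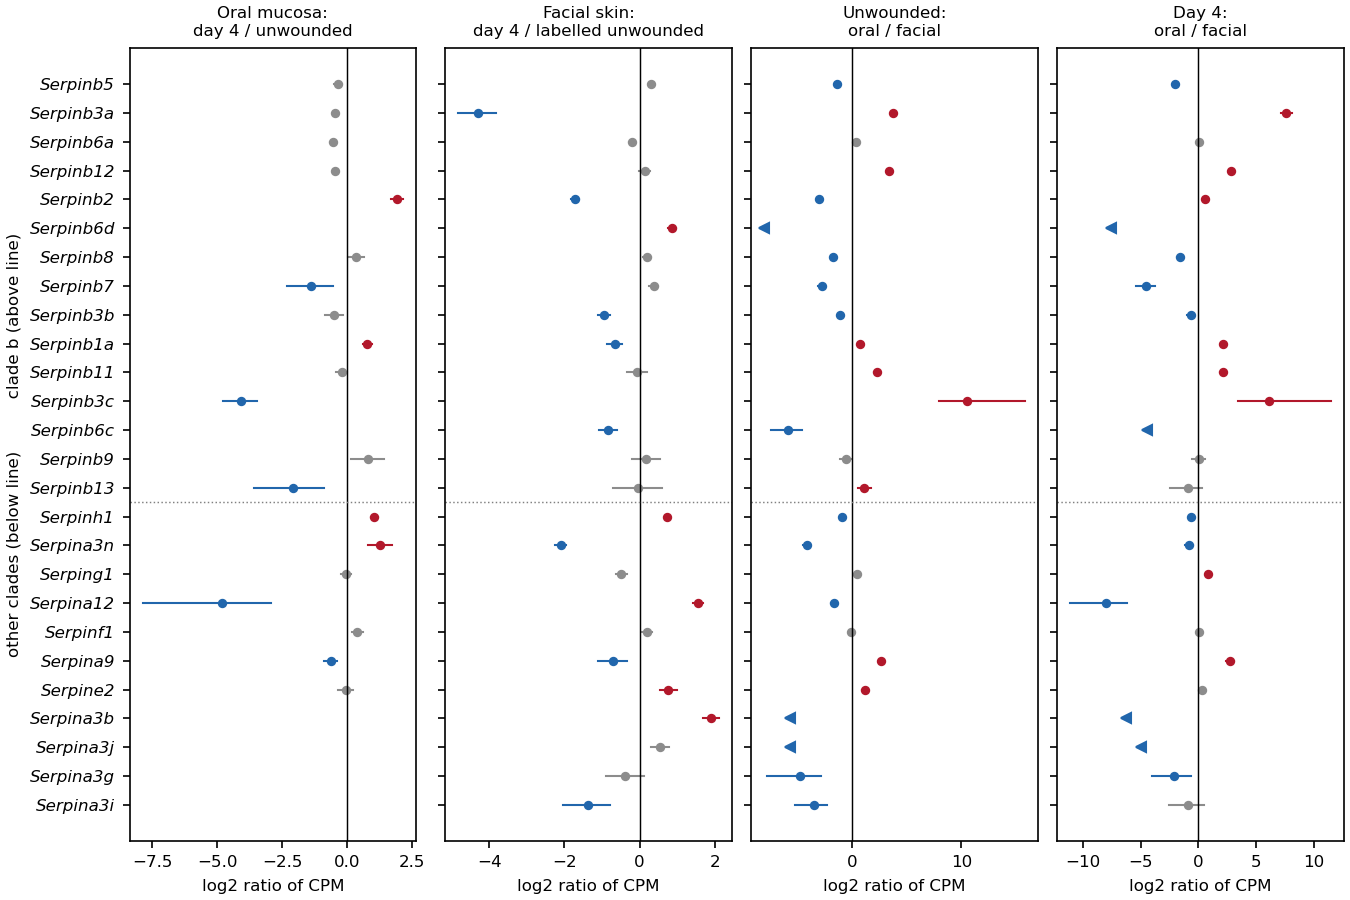
Log2 ratio of CPM for 26 serpin genes with at least 100 UMIs, in the 4 comparisons, where at least 20 UMIs were counted over both sections. Points with exact 95% intervals are red where higher, blue where lower and grey where not called; triangles are bounds for genes at 0 UMIs in 1 section, and the horizontal axes differ. Serpinb2, Serpina3n and Serpinb1a were red in oral mucosa and blue in facial skin in the 2 panels on the left.

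In facial skin Serpinb2, Serpina3n and Serpinb1a, which were higher at day 4 in oral mucosa, lay on the other side, with the section labelled unwounded above the day 4 section. Of 15 clade b members that passed, 1 was higher at day 4 (Serpinb6d, 1.81-fold) and 5 lower: Serpinb3a (19.8-fold), Serpinb2 (3.26-fold), Serpinb3b (1.92-fold), Serpinb6c (1.78-fold) and Serpinb1a (1.58-fold). Of 16 members of the other clades, 5 were higher, among them Serpina3b (3.72-fold), Serpina12 (2.95-fold), Serpine2 (1.70-fold) and Serpinh1 (1.67-fold). There were 6 lower, among them Serpina3n (4.27-fold), Serpina3i (2.61-fold) and Serpina9 (1.65-fold). Over all 14231 genes that passed, 6.09% were higher and 8.59% lower. The median log2 ratio was -0.05 over clade b, -0.07 over the others and -0.03 over all genes.

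Without the 177 neutrophil-rich spots, 11 of the 17 facial calls held, and clade b had 0 members higher and 3 lower at day 4. Those of Serpine2, Serpinh1, Serpina9, Serpinb1a, Serpinb6d and Serpinb6c were lost, and Serping1 became lower at day 4, while Serpinb3a, Serpinb2, Serpinb3b and Serpina3n stayed lower. Within the section labelled unwounded facial skin, the neutrophil-rich spots had 156 CPM of Serpinb3a, against 48.4 CPM in its other 494 spots. Serpinb2 had 487 CPM in the neutrophil-rich spots and 238 CPM in the others, and Serpina9 had 31.4 and 10.1 CPM. Serpinh1 had 100.3 CPM in the neutrophil-rich spots and 318 CPM in the others, and Serpina3n had 67.9 and 245 CPM. The log2 ratio of neutrophil-rich over other spots was 1.80 for the wound keratinocyte list and 0.81 for the epithelial list. It was -1.84 for the fibroblast list and -0.97 for the macrophage list. S100a8 is in both the neutrophil and the wound keratinocyte list, so the choice of spots in part sets the 1.80. The part of these lists in the serpin values was not tested.

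Across spots, clade b had higher summed levels in epithelium-rich spots than elsewhere in all 4 sections. In the 25% of spots richest in epithelial markers, clade b had 4274 and 5847 CPM in day 4 and unwounded oral mucosa, and 1899 and 2560.0 CPM in day 4 facial skin and the section labelled unwounded. In the remaining spots with at least 1000 UMIs it had 829, 1407, 1292 and 1427 CPM in the same order. The other clades had 520 and 547 CPM in the epithelium-rich spots of day 4 and unwounded oral mucosa, against 753 and 502 CPM in the remaining spots. In facial skin they had 526 and 366 CPM in the epithelium-rich spots of the day 4 section and the section labelled unwounded, against 1423 and 1001 CPM in the remaining spots. In those epithelium-rich spots, unwounded oral mucosa exceeded the section labelled unwounded facial skin in clade b by 1.19 on the log2 scale and in the other clades by 0.58. For the other clades that is the reverse of the whole sections. Of the clade b members with at least 100 UMIs in a section, 6 of 8 and 8 of 10 were at least 1.5-fold higher in the epithelium-rich spots of day 4 and unwounded oral mucosa, and 8 of 12 and 9 of 13 in those of day 4 facial skin and the section labelled unwounded. Of the other clades these counts were 1 of 5, 2 of 6, 1 of 8 and 2 of 10. Of all genes with as many UMIs, 36.8% and 45.6% were so in day 4 and unwounded oral mucosa, and 10.2% and 8.79% in day 4 facial skin and the section labelled unwounded. At least 1.5-fold lower there were 1 of 8, 1 of 10, 4 of 12 and 2 of 13 clade b members, in the same order. Of the other clades 4 of 5, 4 of 6, 7 of 8 and 8 of 10 were lower, and of all genes 25.3%, 21.7%, 42.5% and 38.0%. Spots of a section are not replicates.

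**Figure D3:**
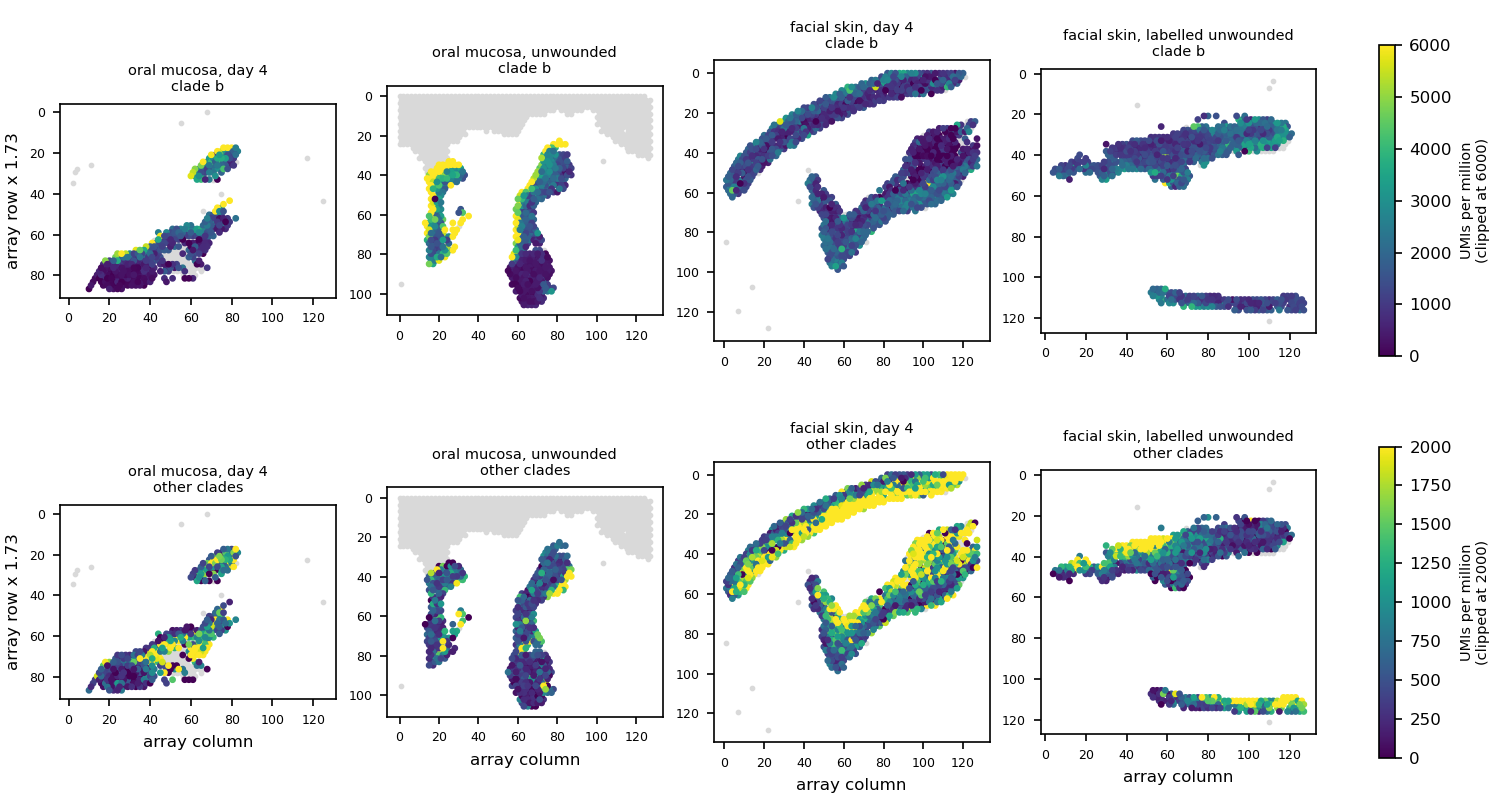
Clade b (upper row) and other clades (lower row) in every spot with at least 1000 UMIs, in CPM, placed by array row and column, with grey for shallower spots and values clipped at the top of each colour bar. In oral mucosa the high clade b spots line edges of the tissue, and in facial skin the high spots of the other clades lie together in bands.

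The marker list with the highest ratio of richest over remaining spots set the members apart. In facial skin Serpinb7, Serpinb8, Serpina12 and Serpinb5 were highest in spots rich in epidermal suprabasal markers in both sections. Serpina12 there had a log2 ratio of 2.50 at day 4 and 2.69 in the section labelled unwounded. Serpina3b, Serpina3j and Serpinb6d instead were highest in spots rich in sebaceous gland markers, with log2 ratios of 3.97, 3.89 and 3.79 at day 4 and 3.19, 2.94 and 3.44 in the section labelled unwounded. Those spots held 81.6% of Serpinb6d UMIs at day 4 and 77.9% in the section labelled unwounded, beside 24.4% and 24.5% of all UMIs. In oral mucosa Serpinb3a, Serpinb12, Serpinb8, Serpinb11 and Serpina9 were highest in spots rich in suprabasal markers, oral or epidermal. At day 4 Serpinb3a had 91.9% of its UMIs in the spots rich in epidermal suprabasal markers, which held 36.6% of all UMIs. In unwounded oral mucosa it had 71.9% in the spots rich in oral suprabasal markers, which held 28.4% of all UMIs. The 2 shares are from different lists.

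Serpinb2 moved between lists. In day 4 oral mucosa it was highest in spots rich in wound keratinocyte markers (log2 ratio 4.23, 88.0% of its UMIs beside 28.1% of all UMIs). In unwounded oral mucosa it was highest in spots rich in epidermal suprabasal markers (3.36). In the section labelled unwounded facial skin Serpinb3a was highest in the neutrophil-rich spots (1.69). Serpinh1, Serpinf1 and Serping1 were highest in spots rich in fibroblast or macrophage markers in all 4 sections, and Serpinb6a in spots rich in macrophage or smooth muscle markers. Serpinf1 had log2 ratios of 2.09 and 1.88 in the fibroblast-rich spots of day 4 and unwounded oral mucosa, and 3.01 and 2.95 in those of day 4 facial skin and the section labelled unwounded. The sections differed in how tightly UMIs were gathered: 9 of 430 spots held 50% of Serpinb3a UMIs in day 4 oral mucosa and 44 of 1288 in unwounded oral mucosa, where 88 and 157 spots held 50% of all UMIs. For Serpinb6d, 29 of 1141 spots did so in day 4 facial skin and 20 of 671 in the section labelled unwounded.

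**Figure D4:**
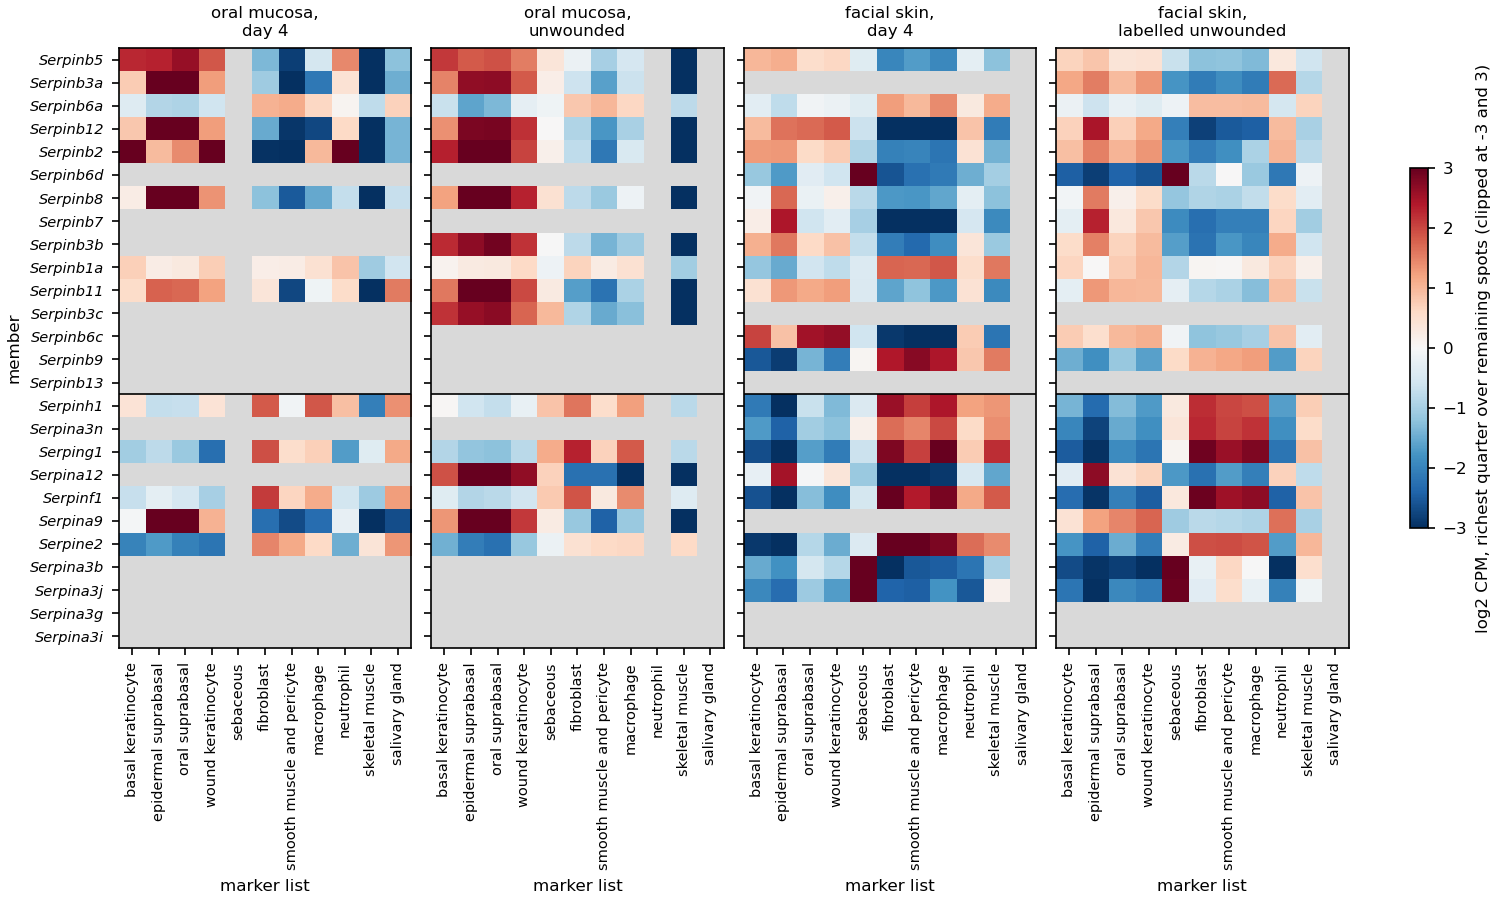
Log2 ratio of CPM in the 25% of spots richest in each marker list over the remaining spots (columns) for each member (rows), clade b above the line, in the 4 sections. Red is higher in the rich spots, blue is lower, and grey marks members or lists with too few UMIs in that section.

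Rank correlation across spots gives a further view of which members lay together. In unwounded oral mucosa Serpinb3a and Serpinb12 had a Spearman's rho of 0.79 over 523 spots, and in day 4 oral mucosa 0.66 over 365 spots. In day 4 facial skin Serpinb7 and Serpina12 had 0.60 over 1096 spots, and in the section labelled unwounded 0.32 over 653 spots. In facial skin Serpinh1 and Serpinb5 had -0.51 at day 4 and -0.41 over 653 spots in the section labelled unwounded. That pair had 0.03 over 523 spots in unwounded oral mucosa. These values share library and spot depth, and are descriptions.

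**Figure D5:**
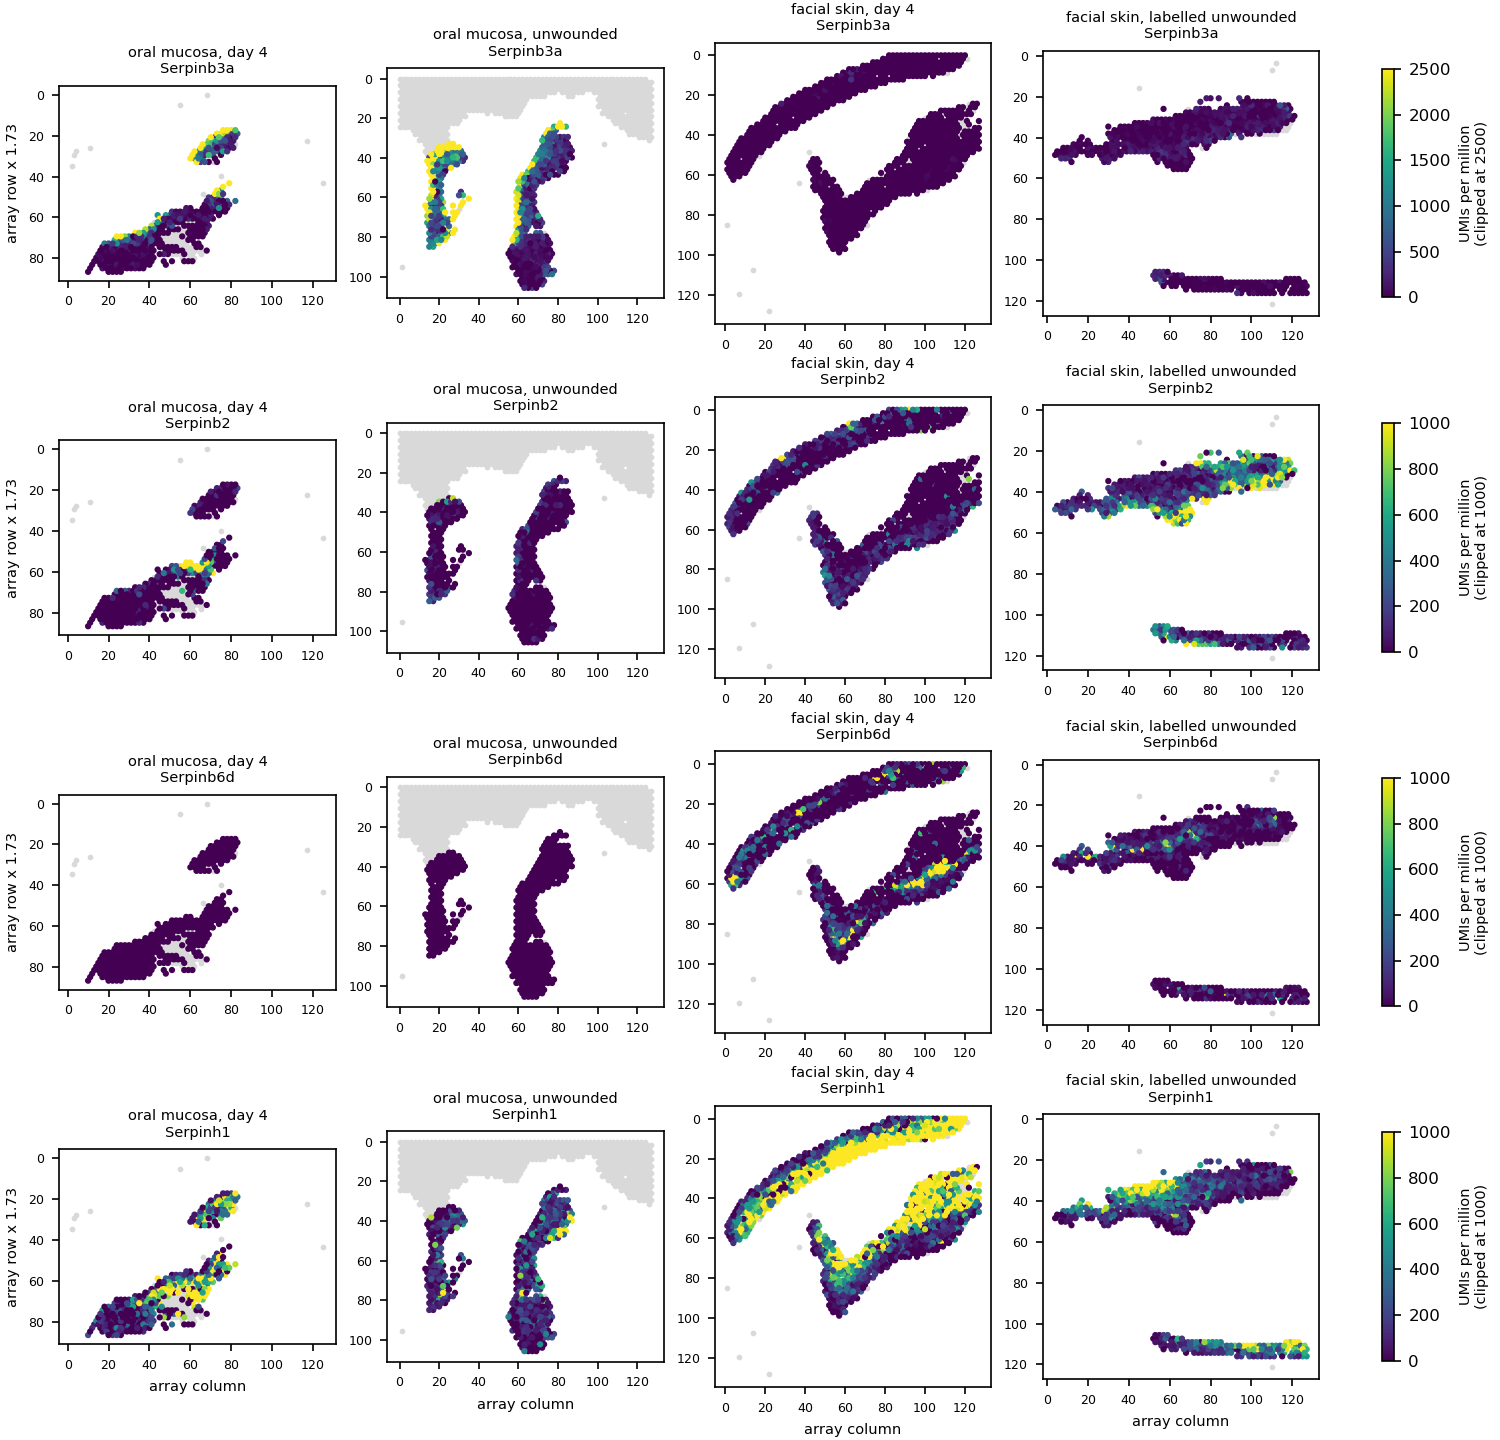
Serpinb3a, Serpinb2, Serpinb6d and Serpinh1 (rows) in every spot with at least 1000 UMIs of the 4 sections (columns), in CPM, placed by array row and column, with grey for shallower spots and values clipped at the top of each colour bar. High Serpinb2 spots lie in 1 patch of the day 4 oral section and along much of the section labelled unwounded facial skin, and Serpinb6d spots are seen in facial skin.

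Genes of the systems that serpins act on were followed through 8 lists. Their counts are to be read against all genes that passed, of which 20.6% were higher and 3.56% lower at day 4 in oral mucosa, and 6.09% higher and 8.59% lower in facial skin. Of 12 plasminogen activation genes that passed in oral mucosa, 7 were higher at day 4 and 0 lower, among them Plat (3.72-fold) and Plau (2.23-fold), the activators that Serpinb2 inhibits. In facial skin 2 of 12 were higher and 3 lower, with the urokinase receptor gene Plaur 3.86-fold lower at day 4. Of 9 cathepsins, 7 were higher in oral mucosa at day 4, such as Ctss (6.59-fold) and Ctsc (4.65-fold), and 2 of 9 were lower in facial skin. Of 12 genes of collagen folding and crosslinking, 5 were higher in oral mucosa at day 4, such as Fkbp10 (4.80-fold), and in facial skin 2 were higher and 1 lower. Of 9 complement genes, 8 were higher in oral mucosa at day 4 and 6 lower in facial skin, C3 being 2.96-fold higher in oral and 2.64-fold lower in facial skin at day 4. The macrophage markers moved the same way, with 10 of 10 higher in oral mucosa and 6 of 10 lower in facial skin, and their part was not tested. C1qa, C1qb and C1qc are in both the complement and the macrophage list, and Ctss is in both the cathepsin and the macrophage list. These counts are therefore not independent.

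Of 13 epidermal serine proteases, 2 were higher and 6 lower in unwounded oral mucosa than in the section labelled unwounded facial skin, beside 10.1% and 59.7% of all genes. Klk7, the target of Serpina12, was 12.2-fold lower in unwounded oral mucosa and 9.45-fold lower in day 4 oral mucosa, and Tmprss11a was 64.9-fold and 117-fold higher. In oral mucosa 0 of 11 passed the call in either direction at day 4, and in facial skin 2 of 13 were higher and 4 lower. Of 11 other protease inhibitors, 2 were higher in oral mucosa at day 4, and of 10 in facial skin 1 was higher and 3 lower. Among them Slpi, an inhibitor of neutrophil elastase, was 21.2-fold higher in unwounded and 211-fold higher in day 4 oral mucosa. Of 4 leukocyte serine proteases that passed in oral mucosa, 4 were higher at day 4, led by the mast cell gene Cma1 (4.79-fold), and in facial skin 4 of 7 were higher and 1 lower. Of the coagulation proteases, Pros1 was the 1 gene that passed in oral mucosa and was 2.42-fold higher at day 4, and in facial skin 3 of 3 were lower.

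The remaining 35 members had few or no UMIs. Of these, 16 had none in any section, 7 of them in clade b and 7 in clade a, and 11 had 1 to 19. Another 8 had 20 to 99: Serpina3c (75), Serpinb6b (46), Serpini1 (45), Serpina3m (27), Serpinb1b (27), Serpinb6e (24), Serpina10 (22) and Serpinc1 (20). Of these, Serpini1 (neuroserpin, which inhibits tissue plasminogen activator) had 26 UMIs in day 4 facial skin and 9 in the section labelled unwounded, and was 3.47-fold higher. Serpina10 and Serpina3m had 2 and 1 UMIs in day 4 facial skin, against 20 and 24 in the section labelled unwounded. The liver serpins were at the limit of detection: no Serpina1 gene had more than 11 UMIs over the 4 sections, beside 6 to 33 UMIs a section for the 7 hepatocyte and plasma markers.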

How the data were processed

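The authors deposited raw UMI counts per gene and spot, 1 matrix a section. Per the file headers these counts are output of Space Ranger 1.3.1. The submitters' processing notes name mm10 and Seurat, while the sources used here give neither the annotation release nor how reads shared between paralogs were handled. Members and lists were chosen with earlier results of these data known. All spots were summed per section and divided by the section's total. Exact Poisson intervals for levels and exact conditional intervals for ratios cover counting error only, and with 1 section a group no test was made. The call rule was run on simulated Poisson counts with set folds, the model that its intervals assume. That run holds no variation between sections and so cannot speak to it. Medians over lists used log2 of CPM plus 10. Every member with at least 100 UMIs was named except 1, which is not reported here but stays in the sums and counts, and of each list at most the 4 called genes with the largest ratio and at least 100 UMIs. Spot classes used spots with at least 1000 UMIs. Alternatives were TMM scaling, other section totals, a mean over spots, filters on spot depth and on muscle, salivary and neutrophil markers, other UMI minimums, a 2-fold limit, a smaller pseudocount, the richest 10% of spots, and, chosen after seeing the data, the 25% of spots richest in epithelial markers. Python 3.11.15, numpy 2.4.6, scipy 1.17.1, pandas 2.3.3, matplotlib 3.10.9 and R 4.3.3 with edgeR 4.0.16 (TMM factors) were used.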

Additional observations from a re-analysis of the deposited data

Results flagged for a closer look

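For Serpinb2, Serpina3n and Serpinb1a the day 4 section was called higher than the unwounded section in oral mucosa and lower in facial skin. The log2 ratio of oral mucosa minus that of facial skin was 3.62 for Serpinb2 (3.37 to 3.86), 3.34 for Serpina3n (2.87 to 3.80) and 1.43 for Serpinb1a (1.17 to 1.69). With 1 section a group the difference was not tested, and the intervals cover counting error only. The neutrophil markers, 8 of 8 higher at day 4 in oral mucosa and 9 of 9 lower in facial skin, moved the same way. So did the wound keratinocyte markers (6 of 8 higher, 7 of 9 lower) and the macrophage markers (10 of 10 higher, 6 of 10 lower). The part of these lists was not tested. Without the 177 neutrophil-rich spots of the section labelled unwounded facial skin, the facial calls of Serpinb2 and Serpina3n held and that of Serpinb1a was lost. Within that section the genes differed. Serpinb2 and Serpinb1a had higher levels in the neutrophil-rich than in the other spots (487 against 238 CPM, and 73.9 against 45.8 CPM). Serpina3n had a lower level there (67.9 against 245 CPM).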

How the results depend on the processing

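Of the counts of called members under the other settings, 147 lay within 1.5 times the reported count and 29 did not. With TMM scaling the all-gene median of unwounded oral over facial tissue was -0.08 in place of -0.47, and ratios between tissues are best read against that shift. Depth limits the members under 20 UMIs, which have no call. No paired analysis was possible because the labels carry no replicate numbers and each group is 1 section.

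In oral mucosa, clade b members lower at day 4 numbered 3 as reported, 8 with TMM scaling, 7 with totals without mitochondrial and top genes, 7 as a mean over spots and 8 in spots under 1% muscle markers. Higher ones numbered 2 as reported and 1 with TMM scaling, with those other totals and at a 2-fold limit. Of the other clades, 2 were lower as reported and 1 in spots under 1% salivary markers or at a 2-fold limit. In facial skin, clade b members higher at day 4 numbered 1 as reported, 2 as a mean over spots, and 0 without the neutrophil-rich spots or at a 2-fold limit, and lower ones numbered 5 as reported, 3 without those spots and 2 at a 2-fold limit. Of the other clades, 5 were higher as reported and 3 without those spots, at a 2-fold limit and in the 25% of spots richest in epithelial markers, where 3 in place of 6 were lower.

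In unwounded oral over facial tissue, members of the other clades that were higher numbered 2 as reported, 4 with TMM scaling and in the epithelium-rich spots, and 1 under 1% muscle markers. Lower ones numbered 11 as reported, 7 under 1% muscle markers, 6 with a minimum of 100 UMIs and 3 in the epithelium-rich spots. At day 4 oral over facial, 3 were higher as reported and 5 in the epithelium-rich spots, and 7 were lower as reported, 3 with TMM scaling and in the epithelium-rich spots, and 4 with totals without mitochondrial and top genes or under 1% muscle markers. Among called members and clade sums, directions turned in 10 cases. Members without a call over whole sections are not counted there. Serpinb6a, for one, turned in spots under 1% muscle markers in unwounded oral over facial tissue. In the epithelium-rich spots the log2 ratio was 0.33 for Serpina3i and -0.13 for Serpine2 in facial skin, 0.32 for Serpina3n and 0.91 for Serpinh1 at day 4 oral over facial, and 0.38 for Serpinh1 unwounded. In spots under 1% muscle markers it was 0.21 for Serpinb3b at day 4, 0.12 for Serpinb3b unwounded and -0.36 for Serpine2 unwounded, oral over facial. The sum of the other clades in unwounded tissue was 0.0707 with TMM scaling and 0.58 in the epithelium-rich spots. The cause was not tested.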
